A study of Homo sapiens with 4 samples.

Results

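Integrins, the proteins that tie them to the actin cytoskeleton, the tetraspanins that organise them in the membrane and further adhesion receptors were read on 4 expression arrays of M14, an established human melanoma cell line. The set was chosen by gene name, with earlier results of these data known. It lists 46 genes: 12 integrin alpha subunits, 6 integrin beta subunits, 12 focal adhesion adaptors, 5 tetraspanins and 11 matrix or cell adhesion receptors. In the platform annotation 143 of 54613 probe sets, the groups of probes that read 1 transcript each, named a listed gene alone. They cover 44 of the 46 genes. DAG1 and DDR1 were not analysed here, DDR1 because its 4 probe sets also name another gene.

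M14 cells were stably transfected with the empty vector pIRES2, which carries eGFP, or with pIRES2 holding FLAG-tagged ARHGAP8; the insert was the variant without exon 5. Both lines were kept under G418 and had been sorted for eGFP, and whether a line was 1 clone or a pool was not given in the sources used here. For 2D culture, cells grew on plastic coated with bovine collagen I and were harvested before confluence. For 3D culture, they were embedded in growth factor-reduced Matrigel, a basement membrane gel rich in laminin. Culture lasted 4 days. Each of the 4 combinations of line and culture went onto 1 array, so single ratios carry no replicate error and the number of arrays limits the precision of every value.

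Integrins are alpha-beta dimers that bind collagen, laminin, fibronectin or other matrix proteins outside the cell. Talin and kindlin bind the beta tail inside the cell and switch the dimer on, and paxillin, focal adhesion kinase and the ILK-PINCH-parvin complex then gather at the site, called a focal adhesion. Tetraspanins hold integrins in membrane microdomains, and syndecans, CD44 and DDR2 bind matrix alongside them. Melanoma cells commonly rely on laminin- and RGD-binding integrins and carry MCAM, whose name stands for melanoma cell adhesion molecule.

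Of the 7 melanocyte markers on the array, MITF, SOX10, MLANA, TYR, TYRP1 and S100B were above the floor, a signal of 72.3 explained in the next paragraph, on all 4 arrays, and PMEL was below it on all. KRT5, KRT14, EPCAM, CDH1, PTPRC and CD3E were below it on all 4 arrays. COL1A1, DCN and PECAM1, listed as markers of fibroblasts and endothelium, were above it on all 4 arrays, and the other 4 of these lists, COL3A1, PDGFRB, CDH5 and VWF, were not. Across the arrays the summed signal was 5169 to 8774 for the melanocyte list and 79.7 to 126 for epithelium. It was 350.9 to 481 for fibroblasts, 334 to 440 for endothelium and 56.4 to 86.9 for blood cells. The lists differ in length and in probe sets, so their sums cannot be compared with each other. Of the 6 melanocyte markers tested, MITF, MLANA, TYR and TYRP1 rose in 3D (adjusted p 3.27e-05 to 0.0277 in limma), SOX10 was at -0.35 ± 0.16 log2 and S100B at -0.08 ± 0.16. Between the lines TYRP1 was higher in the ARHGAP8 line by 1.10 ± 0.18 (adjusted p 0.0107 in limma) and the other 5 did not pass, at -0.89 for MLANA, -0.48 for SOX10, -0.45 for MITF, -0.39 for TYR and -0.08 for S100B. All 4 probe sets of ARHGAP8 also name a readthrough gene. Their signals of 4.02 to 14.8 were below the floor on all 4 arrays, so no raised signal was seen in the transfected line. They thus do not bear out the label of that line, which is called the ARHGAP8 line for short. The ARHGAP8 3D array stood apart in its ribosomal RNA controls, with a median 18S signal of 626 against 27.7 to 49.4 on the other 3 arrays and a median 28S signal of 1390 against 94.4 to 119. ACTB, a control for RNA quality, had a 3' signal 1.05 and 1.10 times its 5' signal on the 2D arrays and 1.23 and 1.32 times on the 3D arrays. The part of these differences in the results was not tested.

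Signals are linear MAS5 intensities. Signals of different probe sets are not comparable, so each gene is compared only with itself across arrays. The floor is the median of all scaled signals; lower values were set to it before log2 was taken, and where only 1 of the arrays compared was at the floor the ratio gives a bound. Each gene was read from its probe set with the highest mean log2 value. Of the 44 genes, ITGA1, ITGA7 and TLN2 were at the floor on all arrays, and ITGA4, ITGA11 and BCAR1 were above it on 1 array only. The other 38 were above the floor on at least 2 arrays and were tested, 33 of them above it on all 4. A gene could pass this filter through the group in which it was high.

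**Figure D1:**
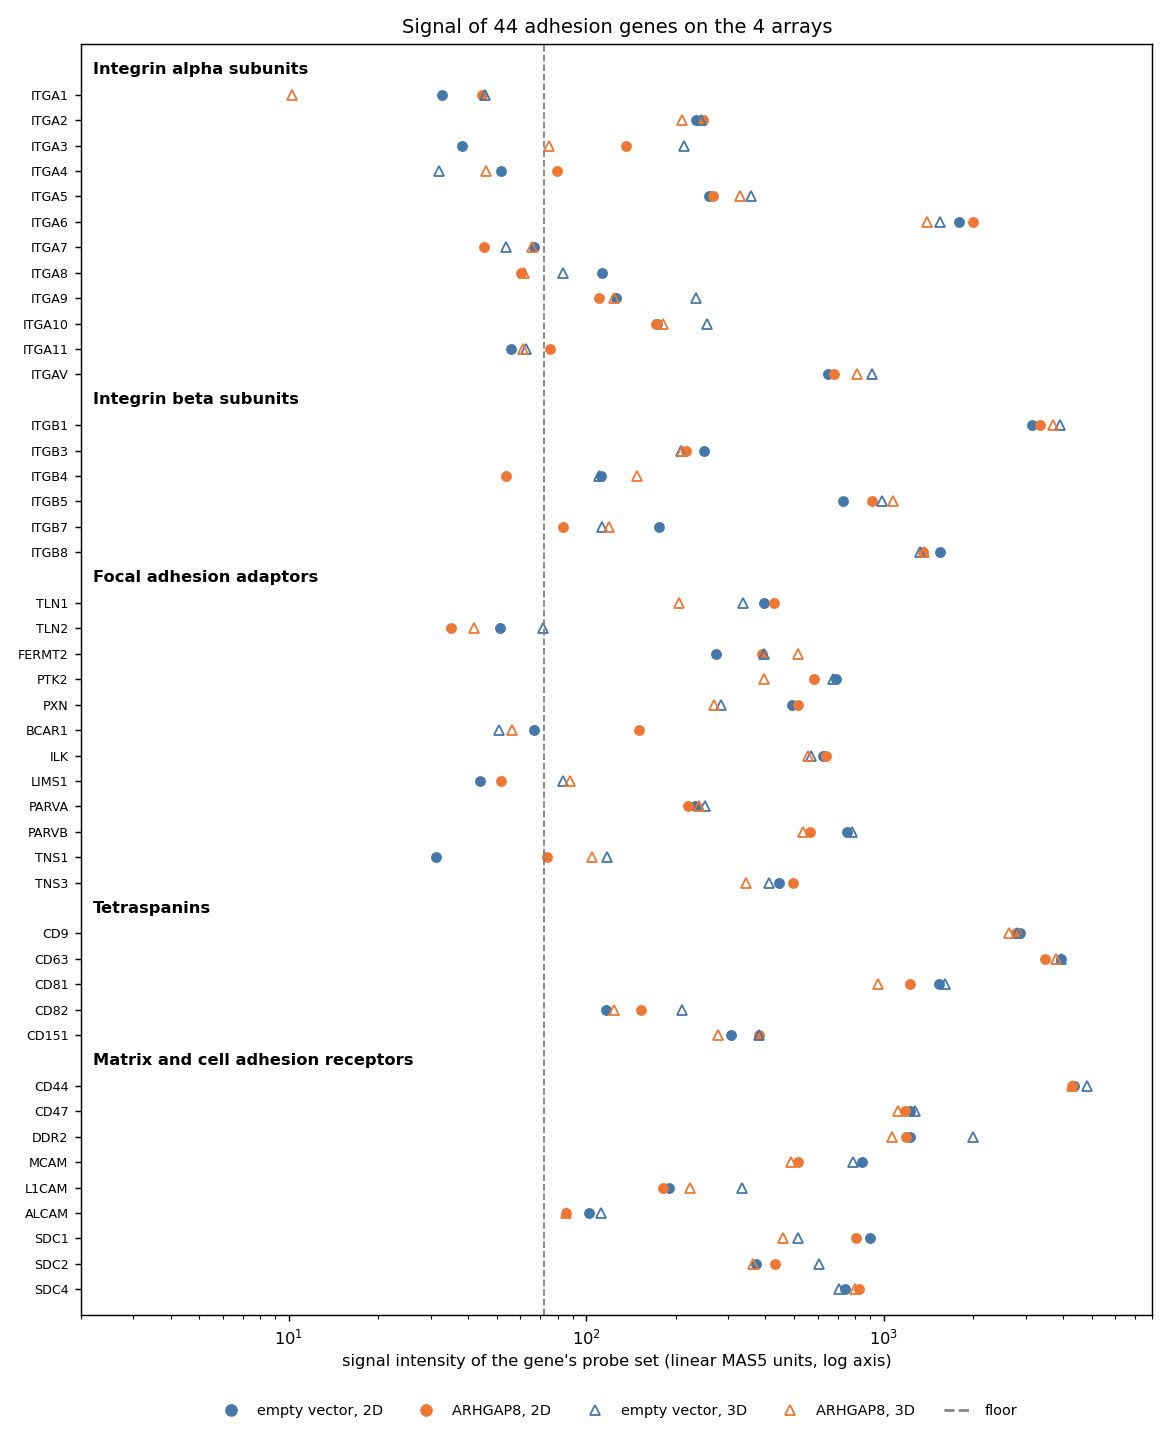
Signal intensity (log axis, linear MAS5 units) of the 44 adhesion genes, 1 row per gene, grouped by role. Circles are the 2D arrays and triangles the 3D arrays, blue for the empty-vector line and orange for the ARHGAP8 line, and the dashed line is the floor of 72.3. For PXN and SDC1 both triangles lie to the left of both circles, and for MCAM both orange points lie to the left of both blue ones.

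The first comparison asked how adhesion genes differed between culture in gel and culture on collagen-coated plastic. The cultures differed in matrix, collagen I against laminin-rich gel, as well as in dimension, so these cannot be told apart. Paxillin and syndecan-1 fell in 3D, and no member rose when each gene was read from its brightest probe set. PXN, which encodes the scaffold protein paxillin, had a 2D signal of 492 with the empty vector and 513 with ARHGAP8, and 3D signals of 284 and 269. Both 3D signals were thus far below both 2D signals, and the lines barely differed. On the log2 scale PXN fell by 0.86 ± 0.19 (moderated SE, 4 arrays) in the additive limma fit of culture and line, a 1.82-fold drop, with an adjusted p of 0.00643. SDC1, a heparan sulfate proteoglycan that acts as a matrix co-receptor, had signals of 899 and 805 in 2D and of 513 and 458 in 3D, in the same order. The groups again did not overlap. It fell by 0.81 ± 0.16 on the log2 scale, 1.75-fold, with an adjusted p of 0.00363 in limma.

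These were 2 of 38 tested members with an adjusted p under 0.05, a share of 5.26%, beside 6.99% of all 13239 genes tested; among all genes 4.15% were lower and 2.83% higher. The members' share was near that background. The median culture difference was 0.02 over the 38 members and 0.03 over all genes, and 19 members had a positive and 19 a negative value. By an unadjusted p under 0.05 in limma 9 members stood out, 23.7% beside 21.0% of all genes. In bulk RNA, fewer cells with a transcript and less of it per cell cannot be told apart.

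Neither difference rests on the ARHGAP8 3D array alone. In the empty-vector line, which does not use it, the log2 ratios of 3D over 2D were -0.79 for PXN and -0.81 for SDC1, and in the ARHGAP8 line they were -0.93 and -0.81. The other probe set of PXN, at signals of 207 and 245 in 2D and 79.4 and 46.7 in 3D, had ratios of -1.38 and, as a bound, -1.76. That of SDC1, at 263 and 326 in 2D and 216 and 186 in 3D, had ratios of -0.28 and -0.81. Averaging the probe sets of each gene ended both calls, with adjusted p-values of 0.0611 for PXN and 0.117 for SDC1 in limma. Preferring plain probe sets, those without a suffix that marks shared sequence, also ended the call of SDC1, at 0.180, and turned the balance of calls: CD47 and ITGB5 were then called higher in 3D and PXN lower. Over 12 tested alternatives the adjusted p in limma ran from 0.00216 to 0.475 for PXN and from 0.00135 to 0.475 for SDC1, the highest without a filter on low signals.

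PXN and SDC1 moved alike, so the stretches before their gene starts are shown to let a reader see what kind of promoter each has. They are the GRCh38.p14 sequences of RefSeq for the most upstream start listed, 250 bases before it, on the minus strand, at chr12:120265731-120265980 for PXN and chr2:20225476-20225725 for SDC1. Capitals mark matches to GGGCGG, the GC box, on either strand.
PXN: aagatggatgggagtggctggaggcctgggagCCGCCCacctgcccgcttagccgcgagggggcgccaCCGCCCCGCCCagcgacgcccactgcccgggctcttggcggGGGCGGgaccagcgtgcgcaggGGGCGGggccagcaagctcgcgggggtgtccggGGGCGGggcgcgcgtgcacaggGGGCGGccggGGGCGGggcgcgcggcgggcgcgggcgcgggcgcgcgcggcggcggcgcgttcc
SDC1: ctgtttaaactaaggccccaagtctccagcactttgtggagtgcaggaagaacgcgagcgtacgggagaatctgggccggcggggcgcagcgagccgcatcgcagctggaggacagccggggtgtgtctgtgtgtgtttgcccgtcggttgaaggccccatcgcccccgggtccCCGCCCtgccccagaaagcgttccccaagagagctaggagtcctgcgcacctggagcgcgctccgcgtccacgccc
The PXN stretch held 8 GC box matches, an adjoining pair of which share a base, and was 83.6% G or C. The SDC1 stretch held 1 and was 66.4% G or C. Neither held GGAATG, the TEAD motif, TGANTCA, the AP-1 motif, or CACGTG, an E-box, on either strand. Of 36 members with such a stretch in the table, 22 (61.1%) held a GC box, 4 the TEAD motif, 1 the AP-1 motif and 2 the E-box. Of the same stretches of 27305 genes, 42.2% held a GC box, 12% the TEAD motif, 6.57% the AP-1 motif and 6.46% the E-box. These matches describe letters, not binding.

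**Figure D2:**
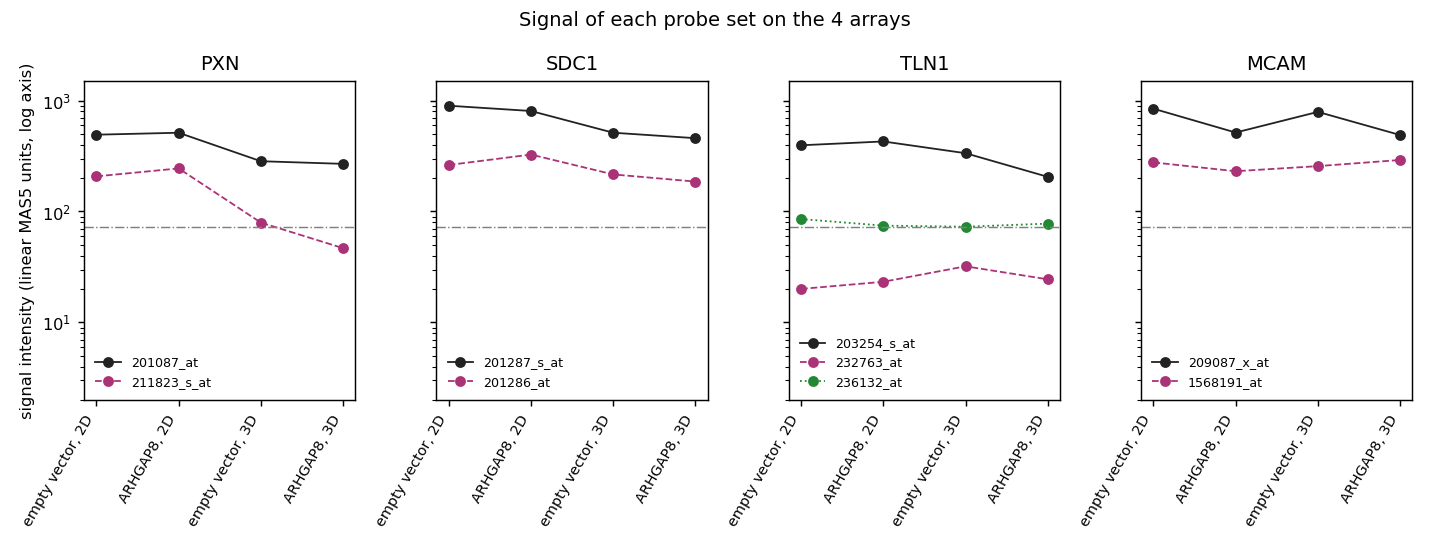
Signal (log axis, linear MAS5 units) of each probe set of PXN, SDC1, TLN1 and MCAM on the 4 arrays; black marks the probe set that represents the gene, other colours its other probe sets, and the grey line the floor. Both probe sets of PXN and of SDC1 read lower on both 3D arrays than on both 2D arrays, while for MCAM the representative probe set separates the lines and the other does not.

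Among the adaptors, talin and kindlin-2, which both bind integrin beta tails, differed in direction. TLN1, the talin that couples integrins to actin, had signals of 395 and 428 on the 2D arrays and of 335 and 205 on the 3D arrays, the empty vector first. Its culture difference was -0.65 ± 0.21 log2 with an adjusted p of 0.0728 in limma, and most of it came from the ARHGAP8 line, at -1.06 against -0.24. Its only other probe set above the floor on all arrays, at signals of 72.9 to 85.5, had ratios of -0.23 and 0.06. TLN1 passed when only genes above the floor on all 4 arrays were tested, at 0.0389; over its 12 tested alternatives the adjusted p in limma ran to 0.874. FERMT2, which encodes kindlin-2, had signals of 272 and 391 in 2D and of 396 and 514 in 3D. It was thus higher in gel in both lines and higher in the ARHGAP8 line in both cultures, by 0.47 ± 0.18 log2 for the culture, but did not pass (adjusted p 0.14 in limma). Its other probe set above the floor on all arrays read the opposite way in 3D over 2D, at -0.28 and -0.68.

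TNS1, a tensin that links integrin tails to actin in mature adhesions, had signals of 31.3 and 73.9 in 2D and of 117 and 104 in 3D. Both 3D signals were higher, but the 2D level of the empty-vector line was at the floor, so its difference of 0.60 ± 0.23 log2 holds a bound (adjusted p 0.127 in limma). PTK2, the focal adhesion kinase, read 690, 582, 673 and 396 in the order empty vector 2D, ARHGAP8 2D, empty vector 3D and ARHGAP8 3D, the order used for sets of 4 signals from here on. Its culture groups overlapped, with a difference of -0.29 ± 0.18. ILK, the scaffold of the ILK-PINCH-parvin complex, read 623, 641, 568 and 558, so both 3D signals were slightly lower, by 0.17 ± 0.16, a gap about as large as its error. PARVA and PARVB, the parvins that join ILK to actin, differed by 0.12 ± 0.22 and -0.02 ± 0.16 log2 between cultures, and LIMS1, the PINCH protein, by 0.25 ± 0.22 with both 2D arrays at the floor. TNS3 differed by -0.32 ± 0.18. BCAR1, the docking protein p130Cas, was above the floor on the ARHGAP8 2D array alone, at a signal of 150 against 51.0 to 66.6, and was not tested. In all, 1 of the 10 tested adaptors fell, beside 4.15% of all genes, and 0 rose, beside 2.83%. Both 3D arrays lay below both 2D arrays for 4, beside 22.7% of all genes, and above for 4, beside 27.5%. LIMS1, among those above, passed the filter through its 3D arrays alone, so its place there was fixed by the filter.

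No alpha subunit passed for the culture. ITGAV, the alpha-v subunit that binds RGD motifs, read 648, 679, 914 and 811, and ITGA5, the fibronectin receptor subunit, 257, 267, 357 and 328. Each had both 3D signals above both 2D signals. The culture differences were 0.38 ± 0.16 and 0.38 ± 0.20 log2 with adjusted p-values of 0.182 and 0.289 in limma. ITGA6, the laminin-binding subunit of alpha6beta1 and alpha6beta4, went the other way at 1783, 1989, 1542 and 1399, lower in both 3D arrays, with a difference of -0.36 ± 0.16 (adjusted p 0.209 in limma). Its other probe set read lower in 3D as well, by a log2 ratio of -0.10 with the empty vector and -1.30 with ARHGAP8.

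ITGA3, another laminin-binding subunit, had the largest single ratios of the members. It read 38.2, 136, 213 and 75.1, so it was high on the ARHGAP8 2D and empty-vector 3D arrays and low or near the floor on the other pair. In the empty-vector line it was higher in 3D by at least 1.56 log2, since its 2D signal was at the floor, and in the ARHGAP8 line the ratio was -0.85. Only 1 probe set names it alone, and its culture term of 0.36 ± 0.36 describes neither line. The subunit of collagen receptors ITGA2 differed by -0.09 ± 0.22 between cultures and ITGA10 by 0.32 ± 0.24. ITGA9, which binds tenascin among other ligands, differed by 0.52 ± 0.26, from a ratio of 0.89 with the empty vector and 0.16 with ARHGAP8. ITGA8 differed by -0.22 ± 0.23, with both arrays of the ARHGAP8 line at the floor. ITGA4, the alpha-4 subunit found on many melanomas, read 51.6, 79.6, 31.9 and 45.9 and ITGA11 read 55.6, 75.5, 62.7 and 61.2, each above the floor on the ARHGAP8 2D array alone and by little. None of the 8 tested alpha subunits passed the limma test, beside 6.99% of all genes. An unadjusted p under 0.05 in limma was found for 2 of the 8, ITGA6 and ITGAV, beside 21.0% of all genes.

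The beta subunits did not pass either. ITGB1, the partner of most of these alpha subunits, read 3159.8, 3345, 3897 and 3699. Both 3D signals were the higher, by 0.22 ± 0.18 log2, without passing (adjusted p 0.521 in limma). All 3 ITGB1 probe sets above the floor on all arrays read higher in 3D with the empty vector. With ARHGAP8, 2 of the 3 read lower in 3D, at -0.27 and -0.36. ITGB5, a partner of alpha-v, read 730.1, 915, 989 and 1075 and differed by 0.34 ± 0.16, again with both 3D signals on top (adjusted p 0.23 in limma). ITGB3, the alpha-v partner linked to invasive melanoma, read 249, 216, 207 and 209.8, a difference of -0.15 ± 0.23 that is smaller than its error. ITGB8 differed by -0.11 ± 0.16. ITGB4, the partner of alpha6 in hemidesmosomes, read 112, 53.6, 110.4 and 148, with a ratio of -0.03 for the empty vector and a bound of 1.03 for ARHGAP8. ITGB7, a leukocyte subunit, read 175, 83.3, 113 and 119, with ratios of -0.63 and 0.52. For both, the ARHGAP8 2D array was the low one. None of the 6 beta subunits passed the limma test, beside 6.99% of all genes. An unadjusted p under 0.05 in limma was found for 1 of the 6, ITGB5, beside 21.0% of all genes.

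No tetraspanin passed for the culture. CD9, a partner of several integrins, read 2866, 2774, 2793 and 2639, and CD63, a tetraspanin of late endosomes and melanosomes, 3941, 3474, 3956 and 3803. Their culture differences were -0.05 ± 0.17 and 0.07 ± 0.18 log2, both within their errors. CD151, which binds laminin-binding integrins, read 306, 382, 381 and 276, so 3D over 2D was 0.32 with the empty vector and -0.47 with ARHGAP8. CD81 differed by -0.14 ± 0.16 and CD82 by 0.28 ± 0.28. For all 5 tetraspanins the 2D and 3D groups overlapped. Of the 5, 0 passed in limma, beside 6.99% of all genes, and 0 had an unadjusted p under 0.05, beside 21.0%.

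Among the receptors, SDC1 was the only called member of 9 tested, beside 6.99% of all genes, and the other syndecans did not pass. SDC4, the syndecan found in focal adhesions, differed by -0.06 ± 0.16 log2 between cultures and SDC2 by 0.23 ± 0.21. The gap between SDC1 and these was not tested. CD44, the hyaluronan receptor, read 4353, 4283, 4838 and 4300.1, and only the empty-vector 3D signal stood out, for a culture difference of 0.08 ± 0.19. L1CAM, an adhesion molecule of the immunoglobulin family, read 189, 181, 333 and 224, both 3D signals being higher, and differed by 0.56 ± 0.23 (adjusted p 0.165 in limma). DDR2, a receptor tyrosine kinase for fibrillar collagen, read 1223, 1186, 1996 and 1064 and was high on the empty-vector 3D array alone. CD47, MCAM and ALCAM differed by -0.01 ± 0.16, -0.08 ± 0.16 and 0.06 ± 0.23 between cultures.

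**Figure D3:**
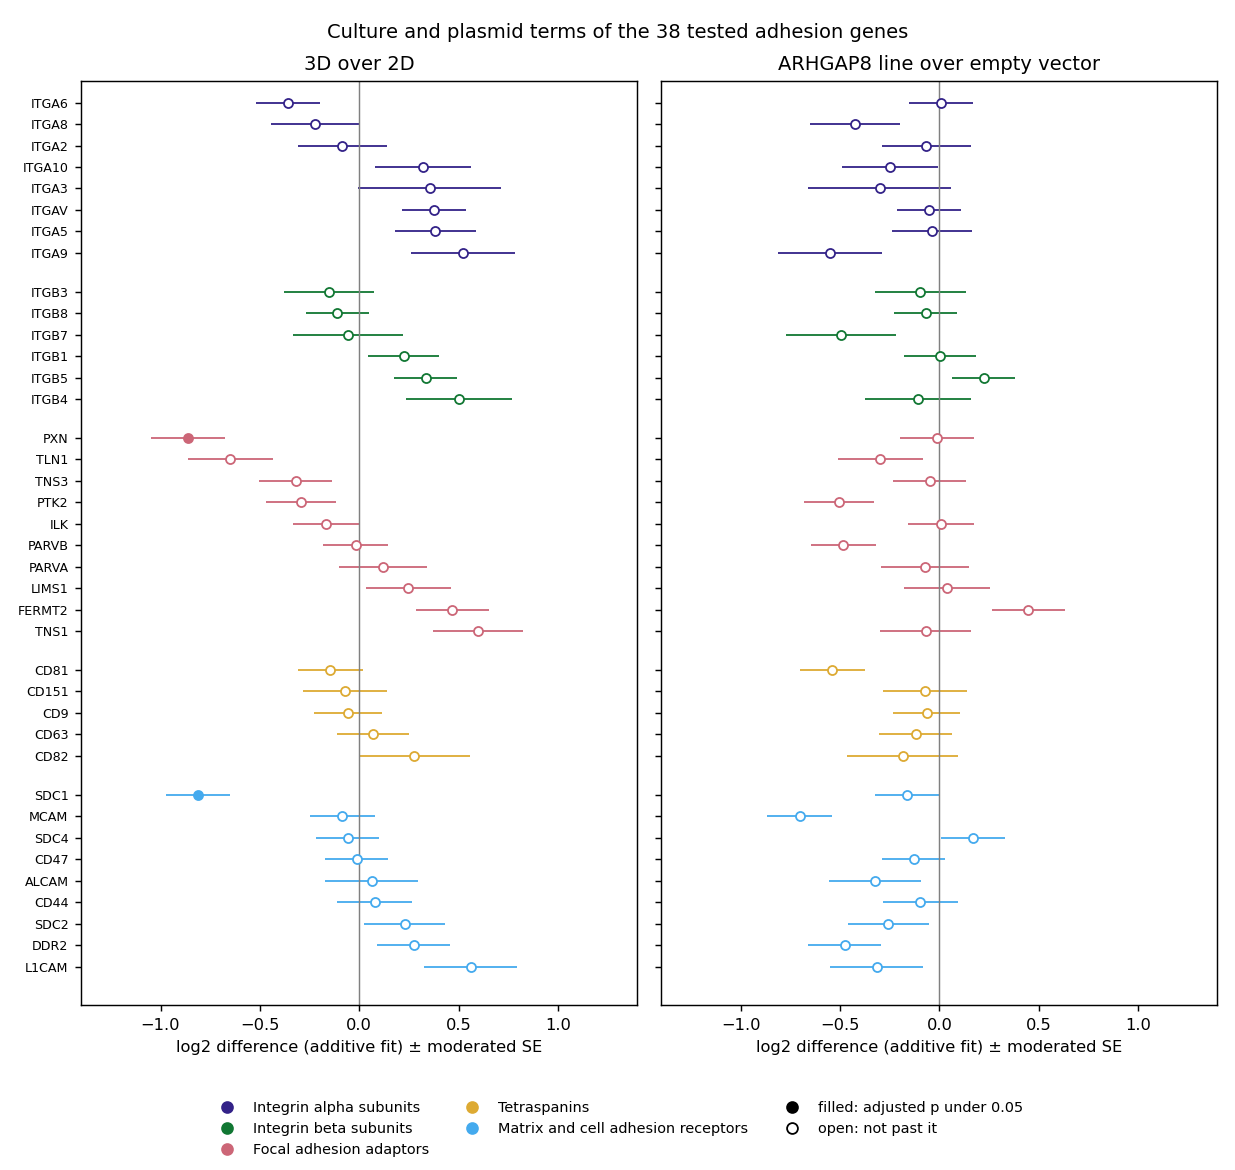
Log2 difference of 3D over 2D (left) and of the ARHGAP8 line over the empty-vector line (right) for the 38 tested genes, with bars of 1 moderated standard error from the additive limma fit, coloured by role; filled points had an adjusted p under 0.05. PXN at -0.86 and SDC1 at -0.81 are the filled points on the left, and the right panel has none, with MCAM lowest at -0.70.

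The second comparison asked how the ARHGAP8 line differed from the empty-vector line. MCAM gave the widest gap among the members in the additive fit, and it was of like size in both cultures; single ratios were wider for others, such as ITGB7 in 2D and ITGA3 in 3D. It read 845 in 2D and 791 in 3D with the empty vector, and 515 and 489 with ARHGAP8, so both ARHGAP8 signals lay below both empty-vector signals. The log2 ratios were -0.71 and -0.69, and the additive difference was -0.70 ± 0.16, with the empty-vector line 1.63-fold higher. Its adjusted p of 0.104 in limma did not pass. It did pass, at 0.0456, when only genes above the floor on all 4 arrays were tested, and over 12 tested alternatives it ran from there to 0.996. Its other probe set, at 277, 231, 256 and 291, read -0.26 in 2D and 0.18 in 3D. Each plasmid is represented by 1 line, so plasmid and line cannot be told apart.

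No member passed for the line in limma: 0 of 38, beside 0.128% of 13239 genes, 0.0680% higher and 0.0604% lower. At an unadjusted p under 0.05 there were 7 members (18.4%), beside 8.14% of all genes: MCAM, CD81, PARVB, PTK2, DDR2, FERMT2 and ITGA9. Apart from FERMT2, each of these read lower in the ARHGAP8 line on both pairs of arrays. CD81, a tetraspanin partner of integrins, read 1536, 1225, 1609 and 957, a difference of -0.54 ± 0.16 log2, and PARVB read 754, 564, 779 and 533, a difference of -0.48 ± 0.16. For both, the ARHGAP8 signals were the low ones in either culture (adjusted p 0.25 and 0.327 in limma). The difference was -0.51 ± 0.18 for PTK2, -0.48 ± 0.18 for DDR2 and -0.55 ± 0.26 for ITGA9. FERMT2 was higher in the ARHGAP8 line by 0.45 ± 0.18, from ratios of 0.52 in 2D and 0.38 in 3D. For 3 of these genes other probe sets above the floor on all arrays did not repeat the value. They gave -0.05 and -0.10 for PTK2, 0.06 for ITGA9 and -0.04 for FERMT2. Those of DDR2, at -0.27 to -0.61, and of PARVB, at -0.05 to -0.68, were all lower in the ARHGAP8 line. Without the ARHGAP8 3D array the line ratio was -0.04 for DDR2, -0.19 for ITGA9, -0.25 for PTK2 and -0.33 for CD81. It was then -0.42 for PARVB, and MCAM and FERMT2 kept -0.71 and 0.52.

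Across the 38 members 31 had a lower and 7 a higher value in the ARHGAP8 line, where 6674 of 13239 genes were lower. The median was -0.10 log2 beside 0.00 over all genes. Both ARHGAP8 signals lay below both empty-vector signals for 12 members (31.6%), beside 14.1% of all genes, and above for 1 member, SDC4, beside 12.7%. The 12 were ITGA8, ITGA9, PTK2, PARVB, CD9, CD63, CD81, CD44, CD47, DDR2, MCAM and ALCAM. ITGA8 passed the filter through its empty-vector arrays alone, so its place among the 12 and the 31 was fixed by the filter. For CD9, CD63, CD44 and CD47 the gaps were within the moderated errors, at -0.06 ± 0.17, -0.12 ± 0.18, -0.10 ± 0.19 and -0.13 ± 0.16. The shift came mainly from 3D: the members' median ratio was -0.17 in 3D and -0.02 in 2D, where the ARHGAP8 3D array with raised ribosomal RNA signals is not used. Over all genes these medians were 0.00 in both cultures.

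By role, all 8 tested alpha subunits read lower in the ARHGAP8 line in 3D, with a median of -0.21, while 5 of 8 read higher in 2D. For ITGA8, at -0.20 in 3D, that direction was fixed by the filter. All 5 tetraspanins were lower in 3D too, with a median of -0.47, against -0.05 in 2D. Of the 9 receptors 8 were lower in 3D (median -0.39) and 7 in 2D (median -0.06). Of the 6 beta subunits 5 read higher in 3D (median 0.06) and 4 lower in 2D (median -0.19). In 3D, ITGB3, ITGB8 and ITGB7 were at only 0.02, 0.04 and 0.08. The probe sets above the floor on all arrays were mixed there. Lower in the ARHGAP8 line were all 3 of ITGB1, 2 of 4 of ITGB3, and 1 of 3 each of ITGB5 and ITGB8. Of the 10 adaptors 8 were lower in 3D, the median being -0.12 there and 0.04 on the 2D arrays. Over all 13239 genes tested, 6458 read lower and 6663 higher in 3D, and 6635 lower and 6282 higher in 2D. All of these counts describe 1 array against 1 array.

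By size alone, few members were 2-fold apart. In 2D, BCAR1 was at least 1.06 log2 higher in the ARHGAP8 line and ITGB7 was 1.07 log2 lower, each 1 of 40 members (2.50%), beside 0.250% of all genes higher and 0.250% lower. In 3D, ITGA3 at -1.50 was the only member of 38 that was lower (2.63%), beside 1.30% of all genes, and 0 were higher, beside 1.09%. Between cultures with the empty vector, ITGA3 was the only member of 38 that was higher in 3D (2.63%), beside 1.72%, and 0 were lower, beside 1.27%. With ARHGAP8, ITGB4 alone of 40 was higher in 3D (2.50%), beside 1.78%, and TLN1 and BCAR1 were lower (5.00%), beside 1.91%. All of these but TLN1 had at least 1 signal below the floor or within 2-fold of it.

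**Figure D4:**
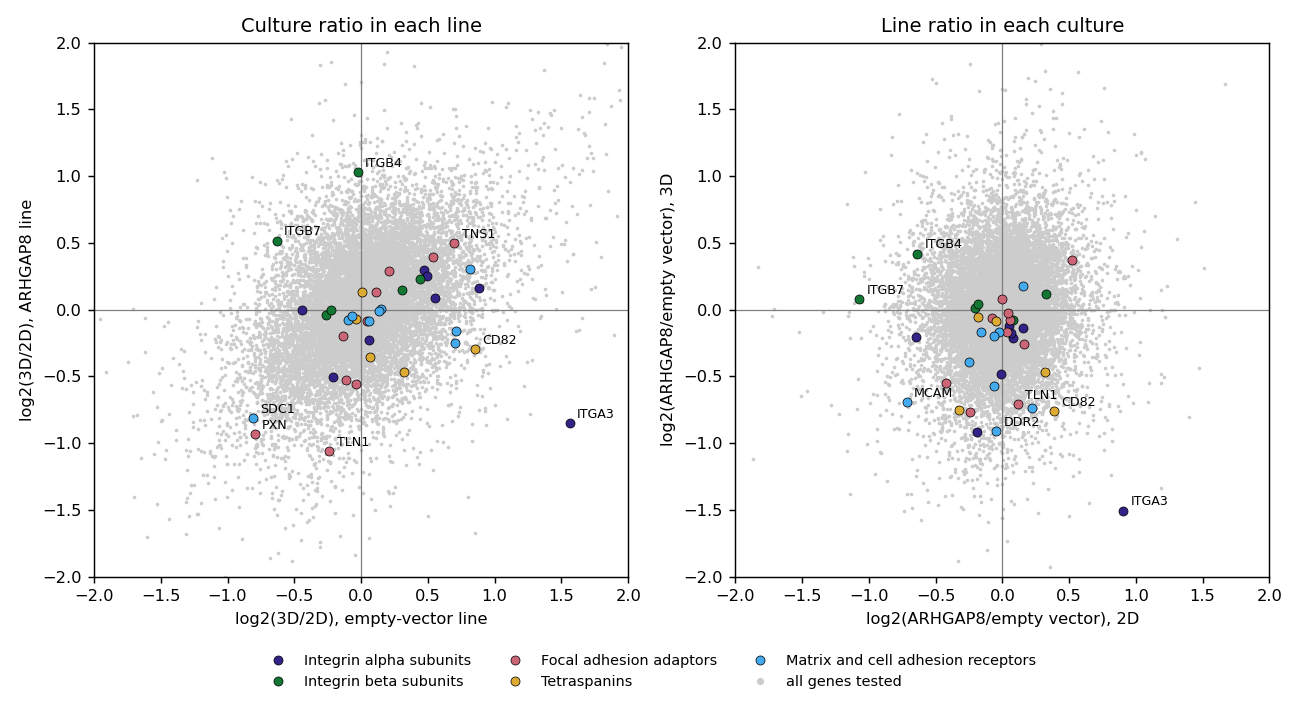
Left, log2 ratio of 3D over 2D in the empty-vector line (x) and the ARHGAP8 line (y); right, log2 ratio of the ARHGAP8 over the empty-vector line in 2D (x) and 3D (y). Coloured points are the 38 tested members by role and grey points all 13239 tested genes, those beyond 2 not shown. PXN and SDC1 lie at the lower left of the left panel, MCAM at the lower left of the right panel, and ITGA3 lies apart in both.

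The third comparison asked whether the culture difference was alike in both lines, and with 1 array per combination it has no test. The empty-vector 3D array gave the highest of the 4 signals for 18 of 38 members (47.4%), beside 28.3% of all genes. The highest was on the empty-vector 2D array for 8 (21.1%), beside 20.3%, on the ARHGAP8 2D array for 8 (21.1%), beside 21.2%, and on the ARHGAP8 3D array for 4 (10.5%), beside 30.2%. The ARHGAP8 3D array gave the lowest signal for 17 (44.7%), beside 25.8%. The lowest was on the empty-vector 3D array for 3 (7.89%), beside 25.0%, and on the empty-vector 2D and ARHGAP8 2D arrays for 9 each (23.7%), beside 22.8% and 26.4%. In 9 of 33 members above the floor on all arrays (27.3%), beside 17.2% of all genes, the ratio of 3D over 2D was positive with the empty vector and negative with ARHGAP8. The reverse held for 2 of 33 (6.06%), beside 18.2%. The ratio of the ARHGAP8 line over the other was positive in 2D and negative in 3D for 12 of 33 (36.4%), beside 22.6%, and it differed at least 2-fold between the cultures for 2 of 33 (6.06%), ITGB7 and CD82, beside 3.29%. These counts all use the same 4 arrays. DDR2 had 0.71 and -0.16, SDC2 0.71 and -0.25, and CD82, a tetraspanin known as a suppressor of metastasis, 0.85 and -0.30. The median culture ratio of the members was 0.06 with the empty vector and -0.04 with ARHGAP8, beside 0.01 and 0.04 over all genes. The ribosomal RNA signals of the ARHGAP8 3D array move with this pattern, and their part in it was not tested.

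Genes with many probe sets show how far a single reading can be carried. CD44 had 13 probe sets, 11 of them above the floor on all arrays. In the empty-vector line 9 of the 11 read higher in 3D and in the ARHGAP8 line 8 read lower, and the empty-vector 3D array was the highest for 8. All 3 such probe sets of ITGB1 and all 4 of DDR2 were also highest on that array. For PARVA this held for 5 of 6, for PARVB for 4 of 5 and for SDC2 for 2 of 3. It held for fewer of those of ITGB3 (1 of 4), CD47 (1 of 4), ITGB5 (1 of 3), PTK2 (1 of 3) and ITGB8 (0 of 3). Probe sets of 1 gene share its RNA and are no replicates. Among 47 probe sets that do not represent their gene and were above the floor on all arrays, from 20 genes, 30 had the culture difference in the direction of the representative and 28 the line difference.

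**Figure D5:**
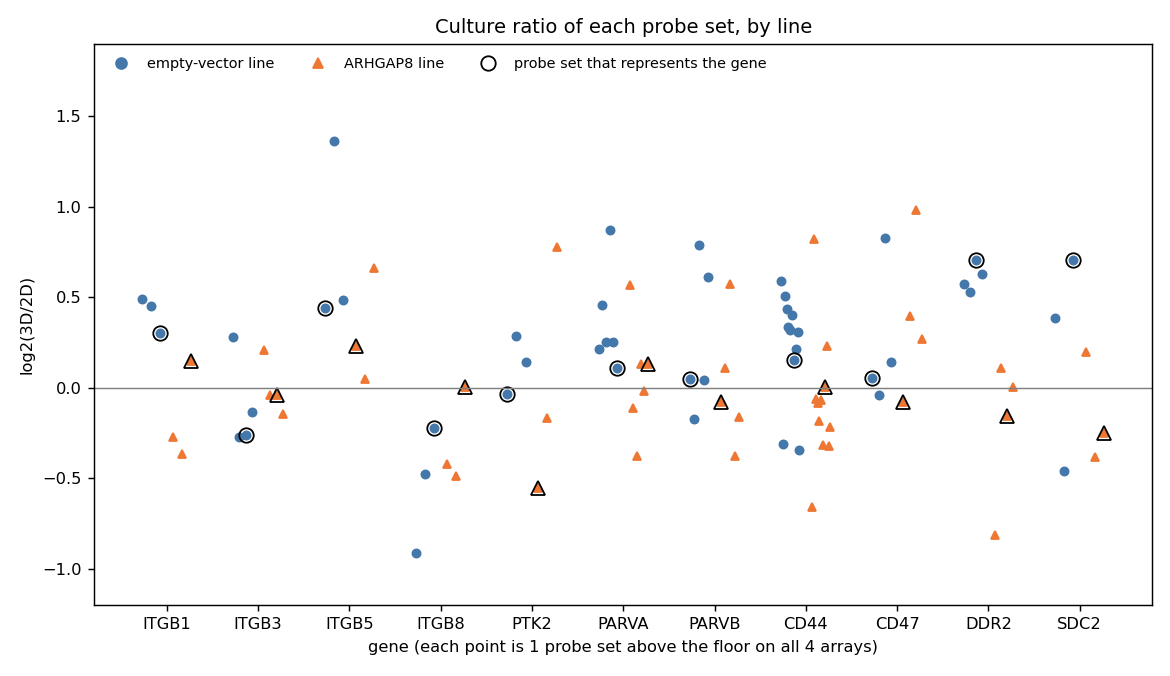
Log2 ratio of 3D over 2D for each probe set above the floor on all 4 arrays, for 11 genes with at least 3 of them; blue circles are the empty-vector line, orange triangles the ARHGAP8 line, and black outlines the probe set that represents the gene. For CD44, 9 of 11 circles lie above 0 and 8 of 11 triangles below it, and all 4 circles of DDR2 lie above 0.

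When every probe set was fitted as its own feature, 5 of 93 member probe sets passed for the culture (5.38%), beside 4.04% of 23095. They were both of PXN, 1 of SDC1, 1 of ITGB5 and 1 of CD47, the thrombospondin receptor that also binds SIRP-alpha. The CD47 probe set read 213, 249, 379 and 492 and rose by 0.91 ± 0.20 log2 in 3D (adjusted p 0.0221 in limma), while the 3 other CD47 probe sets above the floor on all arrays had ratios of -0.08 to 0.40. The ITGB5 probe set read 64.6, 70.1, 158 and 116 and rose by a fitted 0.91 ± 0.24 (adjusted p 0.047 in limma); with both 2D signals at the floor, its ratios of 1.13 with the empty vector and 0.68 with ARHGAP8 are bounds, and the 3 other ITGB5 probe sets all read higher in 3D in both lines. For the line 0 of 93 passed in limma, where 0 of 23095 did.

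Other genes of the same structures were read from lists added beside the members. Of 32 tested genes of other focal adhesion proteins, 4 fell in 3D and 1 rose, beside 4.15% of all genes lower and 2.83% higher. Their median was -0.20 log2 and 25 of 32 were below 0, where the median of all genes was 0.03 and 6054 of 13239 were below 0. ACTN1, the alpha-actinin that crosslinks actin at adhesions, read 2399.8, 2444, 1501 and 1270.5 and fell by 0.81 ± 0.16 (adjusted p 0.00385 in limma). Its 3D signals lay well below its 2D signals in both lines. Zyxin (ZYX), a protein of tension-bearing adhesions, read 776, 786, 603 and 392 and fell by 0.68 ± 0.18, and ACTN4 fell by 0.72 ± 0.18, with a ratio of -0.31 for the empty vector and -1.13 for ARHGAP8. Both were lowest on the ARHGAP8 3D array. FHL2, a LIM protein of focal adhesions, fell by 0.52 ± 0.16, with ratios of -0.53 and -0.51. PPFIBP1, a liprin, rose by 0.71 ± 0.16. After quantile or cyclic loess normalization ACTN1 and PPFIBP1 passed and ZYX, ACTN4 and FHL2 did not, and with probe sets averaged or without a variance trend 0 of the 5 passed.

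In the list of other tetraspanins, 0 of 17 tested rose and TSPAN14 fell by 0.64 ± 0.18 log2 (adjusted p 0.032 in limma). Over all genes tested 2.83% rose and 4.15% fell. That list also holds PTGFRN and IGSF8, which are not tetraspanins themselves. Of 16 other adhesion receptors EPHA2, an ephrin receptor, fell by a fitted 1.07 ± 0.26, from 114 and 204 in 2D to the floor in 3D, so that its ratios of -0.65 and -1.49 are bounds; it passed the filter through its 2D arrays alone. In the list of other integrin subunits, which also holds ITGBL1, not an integrin subunit itself, 0 of 5 tested passed in limma. Only ITGAE, at -0.54 ± 0.17, was under an unadjusted p of 0.05 in limma, beside 21.0% of all genes. For the line 0 genes of these lists passed in limma. At an unadjusted p under 0.05 in limma, beside 8.14% of all genes, were 0 of 5 in the integrin list and 1 of 32 focal adhesion genes. So were 6 of 17 in the tetraspanin list, PTGFRN among them, and 1 of 16 receptors. The median line difference of the tetraspanin list was -0.24, with 13 of 17 lower in the ARHGAP8 line, beside 6674 of all 13239 genes. PTGFRN at -0.52 and IGSF8 at -0.39 are among the 13.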

How the data were processed

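Expression was measured in 4 samples, 1 array for each combination of line and culture. The values the authors deposited are linear signal intensities, 1 for each probe set. The submitters' processing notes name MAS5, whose version is not given in the sources used here. Each array was brought to the same 2% trimmed mean (150.0) over all probe sets, controls included, a value the deposited arrays already had. The 62 control probe sets were then left out, and the signals were floored at 72.3 and put on log2. Symbols came from the platform annotation, updated through RefSeq identifiers for 41037 of 41091 probe sets with 1 symbol. Genes above the floor on at least 2 arrays (13239 of 19775) entered an additive model of line and culture in limma 3.58.1 (R 4.3.3), with an intensity trend, two-sided, Benjamini-Hochberg adjusted over all genes, threshold 0.05. It has 1 residual degree of freedom, the difference of differences, with prior degrees of freedom of 19.4, so each SE draws mostly on other genes and leaves out variation between separate lines or cultures. The fit was also run on simulated data with additive differences and noise drawn from its own variance model. That run cannot show how the fit handles culture differences that vary between lines. Promoters came from RefSeq (GRCh38.p14) and were matched for 36 of 46 genes.

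The members, lists and alternatives were chosen with earlier results of these data known. Signals on all 4 arrays were given for members that passed, differed by at least 0.58 log2 in either term, were 2-fold apart in a single comparison or belonged to a fixed list of well-known members; genes of the added lists were named where they passed. Other members were named after their values were seen. Of the added lists, ITGAE, PTGFRN, IGSF8 and ITGBL1 were also named though they did not pass.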

Additional observations from a re-analysis of the deposited data

Results flagged for a closer look

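For CD82 and ITGB7 the line ratio had opposite signs in the 2 cultures and changed by at least 2-fold; these differences were not tested. Among members above the floor on all 4 arrays 2 of 33 (6.06%) changed by that much, beside 3.29% of all genes. For CD82 the line ratio was 0.39 log2 in 2D and -0.76 in 3D, a change of -1.15, from signals of 117, 153, 210.2 and 124 on the empty-vector 2D, ARHGAP8 2D, empty-vector 3D and ARHGAP8 3D arrays. Its other probe set was at the floor on all arrays. For ITGB7 the ratio was -1.07 in 2D and 0.08 in 3D, a change of 1.15, and it has no other probe set here.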

How the results depend on the processing

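The calls of PXN and SDC1 kept their direction in all 13 alternatives tried. PXN stayed past the threshold in limma in 10 of 12 tested alternatives and SDC1 in 9 of 12. Members called for the culture numbered 2, against 0 without a filter or with probe sets averaged, 3 (with TLN1) on genes measured above the floor throughout and 3 (PXN, CD47 and ITGB5) with plain probe sets preferred. With each probe set fitted 5 probe sets of 4 members passed. For the line 1 member, MCAM, was called when the test took only genes measured above the floor throughout. Over all genes, 925 culture calls became 555 after quantile normalization, 425 without a variance trend, 37 with probe sets averaged and 0 without a filter, where 1876 genes had an unadjusted p under 0.05 in limma. The 17 line calls became 0 after quantile or cyclic loess normalization, without a filter, with probe sets averaged or each fitted (749 to 1688 at an unadjusted p under 0.05 in limma). They became 1 with the floor at 0.5 times its value or no trend, 10 with robust eBayes, 11 with plain probe sets preferred and 61 when the test took only genes measured above the floor throughout.

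Members 2-fold apart between the lines in 2D numbered 2, against 4 with no floor or a floor 0.5 times as high, 0 with a floor 2 times as high and 1 with probe sets averaged. In 3D the 1 became 0 with the higher floor and 6 with each probe set fitted. Between cultures in the empty-vector line 1 became 2 with no floor, the lower floor, averaged or plain probe sets, 0 with the higher floor and 4 with each probe set fitted. In the ARHGAP8 line 3 became 1 after cyclic loess, with the higher floor or with averaged or plain probe sets, and 6 with each fitted. The cause was not tested. Member medians moved by at most 0.1 log2, and the culture median, near 0, changed sign after quantile normalization (-0.01), with the higher floor (-0.04), without a filter (-0.0062) and on genes above the floor throughout (-0.02). Of the gene values compared, 433 were counted as unchanged, 5 lost and 2 gained the call, 36 others moved and 0 called values reversed. Tested values counted as unchanged kept their direction and their side of the threshold. Values without the ARHGAP8 3D array have no test. They were counted as unchanged when within 1 SE of the main value, whatever their sign. Without the ARHGAP8 3D array no degree of freedom is left for the test, so counts of calls were not run. No paired analysis was possible because each group has 1 array.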
